A study of Homo sapiens with 16 samples.

Results

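The promoters of 6 nuclear genes for mitochondrial proteins, chosen as GABPα targets, were examined for GABPα and ERG binding. The genes were TFAM, TFB1M, TFB2M, COX4I1, COX5B and SDHB, and all peaks within 10 kb of a given hg18 start for each gene were taken from 10 ChIP-seq samples. Every one of the 6 had a GABPα peak in at least 1 sample, and each promoter peak lay in its own region among the 93526 regions formed by merging the MACS peaks of all samples. Of these regions, 2387 had a GABPα peak in all 5 GABPα samples.

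The study mapped binding of 2 ETS family factors, GABPα and ERG, in prostate cancer (PC) and leukaemia cells. VCaP is a PC line that carries a TMPRSS2-ERG fusion, and Jurkat is a T-cell leukaemia line. VCaP cells were held for 48 h in charcoal-stripped serum, which is depleted of steroids, and then given vehicle (ethanol) or 1 nM of the synthetic androgen methyltrienolone (R1881). The remaining VCaP condition is labelled t0, with no further account of it in the labels. Each of the 3 VCaP conditions had 1 library per antibody, and Jurkat cells, for which no treatment is labelled, had 2 replicates per antibody. The labels also list 6 input samples, for which no peaks were analysed here. The VCaP vehicle and R1881 libraries were called against the same input for each antibody, t0 against its own, and both Jurkat replicates against the same one. The antibody catalogue number that the labels give for the ERG samples is not the one that the study's methods list for ERG, whereas the GABPα number is the same in both, and this applies to every ERG value below.

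GABPα is the DNA-binding subunit of GABP, also called nuclear respiratory factor 2, an ETS factor that recognises a GGAA core. It is known as a regulator of nuclear genes whose products are imported into mitochondria, often at promoters that also carry sites for the unrelated factor NRF1. TFAM packages mitochondrial DNA and activates its transcription. TFB2M works with TFAM and the mitochondrial RNA polymerase to start transcription, whereas its relative TFB1M is mainly a dimethyltransferase of mitochondrial ribosomal RNA. COX4I1 and COX5B are subunits of cytochrome c oxidase (complex IV), and SDHB is the iron-sulphur subunit of succinate dehydrogenase (complex II).

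The promoter sequences are shown because they hold forms of the ETS core near these gene starts. Whether GABPα reads these letters at the peaks was not tested. The sequences are from RefSeq on GRCh38.p14, run 5′ to 3′ on the strand of the gene, and span 250 bases before and 20 bases from the annotated start. Capitals mark CGGAAG and CGGATG or their complements CTTCCG and CATCCG, which are forms of the ETS core. The coordinates are of another build than the peaks and were not converted.
TFAM, chr10:58385160-58385429, plus strand: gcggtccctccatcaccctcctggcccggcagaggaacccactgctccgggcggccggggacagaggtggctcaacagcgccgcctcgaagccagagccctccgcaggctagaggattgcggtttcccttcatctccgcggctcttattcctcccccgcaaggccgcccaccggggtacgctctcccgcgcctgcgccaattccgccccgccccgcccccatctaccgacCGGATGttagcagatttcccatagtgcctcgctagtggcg
TFB1M, chr6:155314465-155314734, minus strand: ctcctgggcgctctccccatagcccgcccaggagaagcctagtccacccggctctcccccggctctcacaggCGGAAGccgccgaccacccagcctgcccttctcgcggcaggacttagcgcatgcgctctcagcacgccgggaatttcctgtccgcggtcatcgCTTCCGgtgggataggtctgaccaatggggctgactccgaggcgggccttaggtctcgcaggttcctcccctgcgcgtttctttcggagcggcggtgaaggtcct
TFB2M, chr1:246566242-246566511, minus strand: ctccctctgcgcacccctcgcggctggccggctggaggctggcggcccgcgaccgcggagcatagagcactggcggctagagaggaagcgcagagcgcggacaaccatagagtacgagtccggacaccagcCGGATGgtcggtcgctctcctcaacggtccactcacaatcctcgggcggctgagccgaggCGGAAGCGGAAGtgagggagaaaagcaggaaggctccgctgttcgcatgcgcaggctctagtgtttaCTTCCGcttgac
COX4I1, chr16:85799445-85799714, plus strand: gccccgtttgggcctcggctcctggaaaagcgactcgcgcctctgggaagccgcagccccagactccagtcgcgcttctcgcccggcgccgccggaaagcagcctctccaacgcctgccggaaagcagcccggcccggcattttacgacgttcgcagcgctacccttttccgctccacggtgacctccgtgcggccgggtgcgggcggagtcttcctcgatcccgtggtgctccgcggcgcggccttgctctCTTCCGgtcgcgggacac
COX5B, chr2:97645812-97646081, plus strand: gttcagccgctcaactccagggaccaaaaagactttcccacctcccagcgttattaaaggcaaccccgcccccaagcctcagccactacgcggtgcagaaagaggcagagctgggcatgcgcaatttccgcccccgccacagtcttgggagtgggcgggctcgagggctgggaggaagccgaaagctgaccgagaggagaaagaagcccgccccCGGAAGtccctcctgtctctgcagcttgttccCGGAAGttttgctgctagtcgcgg
SDHB, chr1:17054013-17054282, minus strand: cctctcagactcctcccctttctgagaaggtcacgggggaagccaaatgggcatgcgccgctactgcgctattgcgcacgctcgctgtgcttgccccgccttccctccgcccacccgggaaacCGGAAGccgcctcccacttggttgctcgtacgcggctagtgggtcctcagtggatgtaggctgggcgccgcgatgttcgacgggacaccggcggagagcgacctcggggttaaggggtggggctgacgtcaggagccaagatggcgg

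CGGAAG or its complement was found in 5 of the 6 promoters, searched from 250 bases before to 50 bases after the start on both strands, and was missing from TFAM alone. The hexamer was present in 25.5% of the 15843 protein-coding gene promoters of the same length, which were not chosen as GABPα targets. TFB2M held 3 matches, of which 2 stood directly next to each other at positions -59 to -54 and -53 to -48, counted with +1 as the annotated start. TFB1M and COX5B held 2 each, and COX4I1 and SDHB 1 each. The match in COX4I1 lay at +3 to +8 and one of those in COX5B spanned the start, from -4 to +2, whereas the SDHB match lay at -127 to -122.

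TFAM held instead the GGAT form, CGGATG, at -20 to -15. This hexamer was also found in TFB2M at -119 to -114, which made 2 of the 6 against 7.45% of all promoters, and it was searched for only after these promoters had been seen. The longer ETS octamer CCGGAAGT was found in COX5B alone, where both hexamers extended to it, so 1 of the 6 held it against 6.17% of all promoters. The bare core GGAA, contained in both CGGAAG and CCGGAAGT, separated nothing, since all 6 promoters held it and so did 95.2% of promoters.

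Letters other than ETS cores were also shared. GCATGCGC, an NRF1-like octamer, was found in TFB1M, TFB2M, COX5B and SDHB, or 4 of the 6, against 4.27% of all promoters. In TFB1M the match on one strand overlapped a match on the other, and in TFB2M it lay at -15 to -8, between ETS hexamers on either side. The Sp1-like GGGCGG was in all 6, with 5 matches in TFAM and 4 in COX5B, but 58.4% of all promoters held it. The 270 bases shown had a GC content of 61.9% in COX5B to 70.4% in COX4I1, beside a median of 62.2% over the same window of all protein-coding genes.

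**Figure D1:**
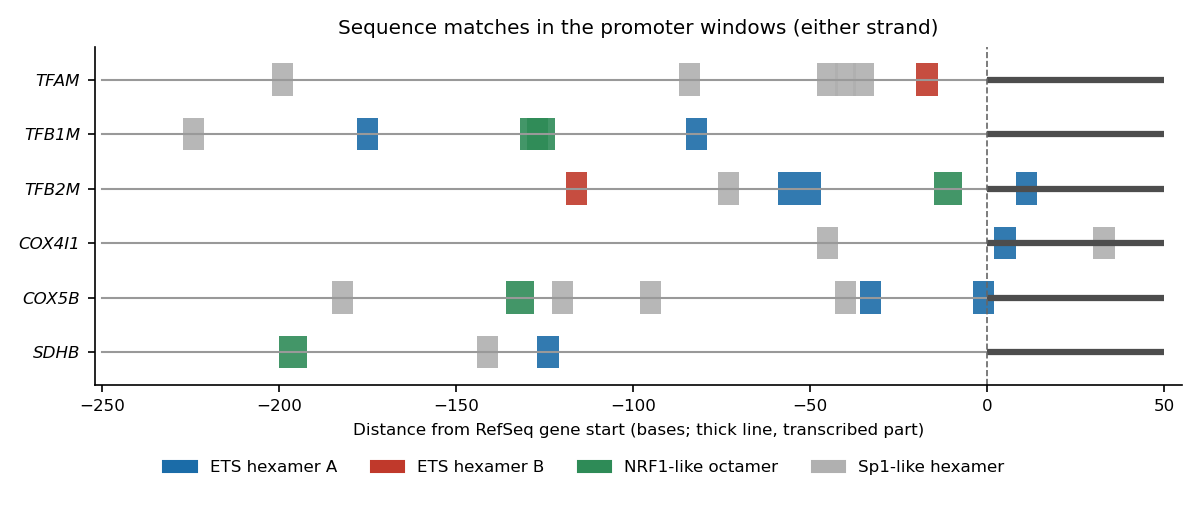
Positions of sequence matches on either strand in the promoter windows of the 6 genes, in bases from the RefSeq start (dashed line); each box is 1 match, ETS hexamer A is CGGAAG, ETS hexamer B is CGGATG, and the grey and green boxes are GGGCGG and GCATGCGC. Hexamer A is present in 5 promoter windows and absent from that of TFAM, which holds hexamer B close to the start.

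The other nuclear genes of these pathways were looked up in the promoter table only, since no hg18 annotation was used here to place peaks at them. Of 32 pathway genes, the 6 included, 28 had a promoter, and COX6C, NRF1, SDHC and TWNK had none. Of the 22 that were not among the 6, 13 held CGGAAG (59.1%, beside 25.5% of all promoters) and 9 held CCGGAAGT (40.9%, beside 6.17%). By group and with the 6 included, CGGAAG was in 5 of 6 genes of mitochondrial transcription, 5 of 9 cytochrome c oxidase subunits and 2 of 3 succinate dehydrogenase subunits. It was in 3 of 3 import receptor and translocase genes, 2 of 3 genes of mitochondrial DNA replication and 1 of 4 regulators. Of the genes counted in these groups, TFB1M, TFB2M, COX4I1, COX5B and SDHB were among the 6 chosen. GCATGCGC was found in 3 of the other 22 (13.6%, beside 4.27% of all promoters), namely COX6A1, POLRMT and SDHD.

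GABPα peaks were found at 6 of the 6 promoters in each VCaP sample and at 5 of the 6 in each Jurkat sample. TFB1M, TFB2M, COX4I1, COX5B and SDHB had a MACS peak in all 5 GABPα samples, a pattern found in 2.55% of all merged regions and 5.1% of the 46811 regions with a GABPα peak in any sample. The regions are not limited to promoters and the 6 genes were chosen as GABPα targets, so these shares are not a like comparison. TFAM had a MACS peak in the 3 VCaP samples alone. A MACS score is -10 times the log10 of the p-value of the peak, so it grows with read number, and it was therefore turned into a percentile, the share of MACS peaks of the same sample with a score at or below it. A sample without a peak was given 0. GABPα samples held 9531 to 22108 MACS peaks and 2851 to 9769 high confidence peaks, which both MACS and a second caller, SWEMBL, had found. Read numbers are unknown from the files.

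TFAM had a MACS score of 61.28 at t0, 450.79 with vehicle and 498.14 with R1881, and no MACS peak in either Jurkat replicate. These scores stood at the 36.1, 71.4 and 74.3 percentile of their samples. TFAM was thus the lowest of the 6 in every GABPα sample, and at t0 its score was close to the lowest score listed, 50.01. The peak was a high confidence peak with vehicle and R1881 only.

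In Jurkat cells the second caller did mark the TFAM promoter. SWEMBL intervals were centred 276.5 bp downstream of the given start in replicate 1 and 285 bp in replicate 2, beside 293.5 bp with vehicle and 269.5 bp with R1881 in VCaP cells. Replicate 2 had another interval centred at -920 bp, which is upstream. No MACS peak overlapped any of these Jurkat intervals, so TFAM counts as unbound in Jurkat by MACS and as bound by SWEMBL. Such intervals were more frequent in the Jurkat GABPα samples, at 23.1% of 10775 and 17.4% of 11828 SWEMBL intervals, than in the VCaP GABPα samples, at 1.89 to 2.54%. Their part in the TFAM difference was not tested.

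TFAM shared its pattern, a GABPα MACS peak in the 3 VCaP samples only and no ERG peak, with other regions. There were 1162 regions of this pattern in all, TFAM included, and 482 of them had a SWEMBL interval in both Jurkat samples. The pattern of the other 5 promoters, GABPα in all 5 samples and no ERG peak, was found in 2179 regions.

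TFB1M had scores of 732.22 at t0, 1951.05 with vehicle and 1358.62 with R1881, and 588.94 and 365.65 in the Jurkat replicates. In percentiles these were 85.9, 91.9 and 86.4 in VCaP and 90.4 and 83.1 in Jurkat cells. TFB1M was the only one of the 6 whose percentile did not fall below 80 in any sample, and its values in both lines overlapped. High confidence peaks were called in all 5 samples, and in Jurkat replicate 2 there were 3 of them under 1 MACS peak.

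TFB2M scored 1460.77 at t0, 1928.48 with vehicle, 1937.16 with R1881, 188.84 in Jurkat replicate 1 and 543.88 in replicate 2. The percentiles were 95.1, 91.7 and 91.9 in VCaP and 66.8 and 89.3 in Jurkat cells. TFB2M had the highest place of the 6 at t0, and its 2 Jurkat replicates differed by 22.5 points. It starts back to back with CNST, whose RefSeq start lies within 1000 bp on the other strand. Both Jurkat replicates also had a weak MACS peak, with scores of 79.09 and 54.02, centred at -5478.5 and -5329 bp from the TFB2M start.

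COX4I1 scored 126.49 at t0, 1598.21 with vehicle and 1653.86 with R1881, and 151.30 and 359.94 in the Jurkat replicates. These stood at the 66.4, 88.4 and 89.4 percentile in VCaP and the 60.2 and 82.8 percentile in Jurkat cells. The t0 sample and the first Jurkat replicate were the low ones, and t0 alone lacked a high confidence peak. This promoter is also divergent, with EMC8 on the other strand.

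COX5B scored 1005.53 at t0, 2215.72 with vehicle, 2077.01 with R1881 and 202.73 and 277.13 in the Jurkat replicates. The percentiles were 90.3, 93.9 and 93.0 in VCaP and 68.7 and 77.9 in Jurkat cells. COX5B, the promoter with both CCGGAAGT matches, had the highest place of the 6 with vehicle and R1881. It was at place 2 at t0 and in Jurkat replicate 1, and at place 4 in Jurkat replicate 2. All VCaP values lay above both Jurkat values.

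SDHB scored 460.66 at t0, 1570.08 with vehicle, 1554.71 with R1881, 196.73 in Jurkat replicate 1 and 134.74 in replicate 2. The percentiles were 80.3, 88.1 and 88.5 in VCaP and 68.0 and 59.3 in Jurkat cells, again without overlap. In Jurkat cells the promoter peak was not the strongest near this start. A second high confidence peak, found in both Jurkat replicates and in no VCaP sample, was centred upstream at -8824 bp and had scores of 342.13 and 273.20. In the RefSeq order the next gene upstream of SDHB is PADI2.

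**Figure D2:**
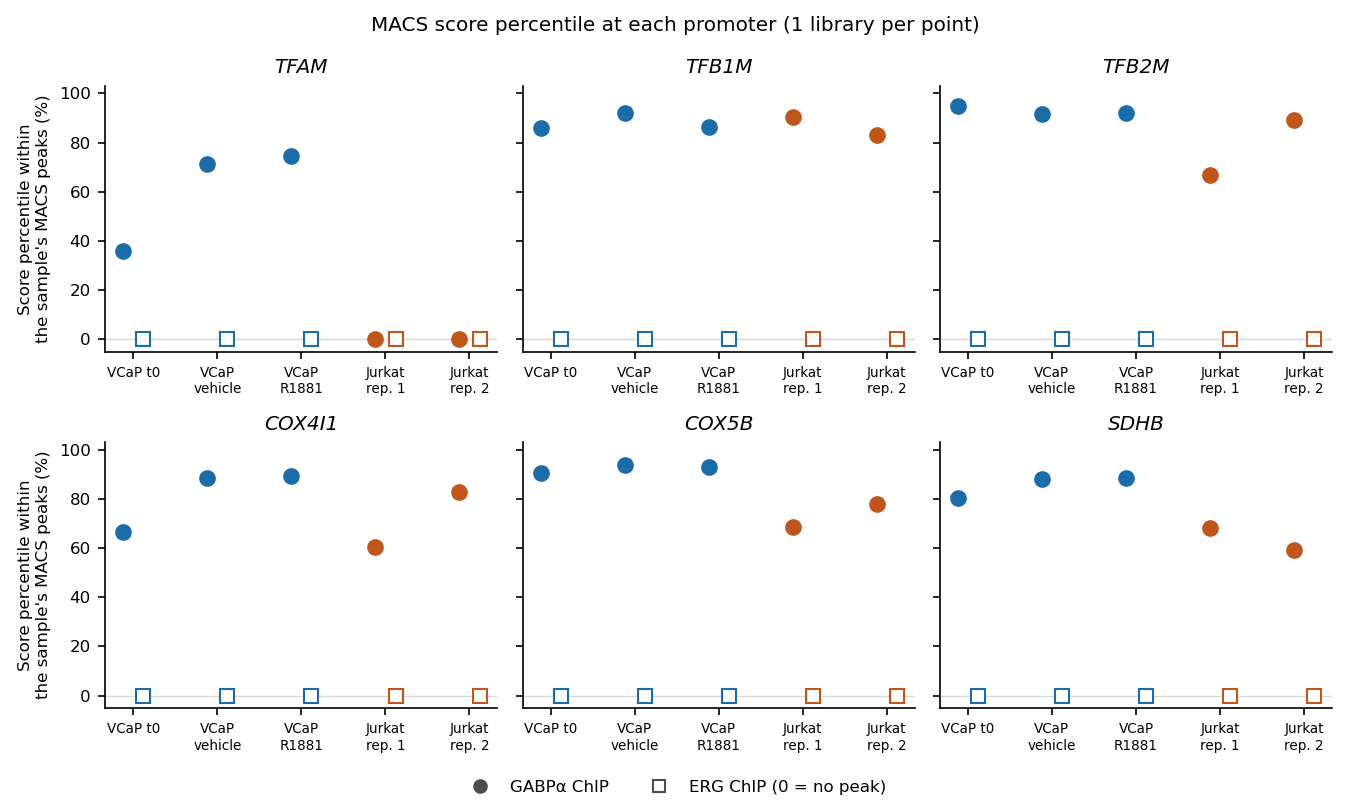
Percentile of the MACS score within its own sample (vertical axis, in %) at each of the 6 promoters, for 3 VCaP samples (blue) and 2 Jurkat replicates (orange); each point is 1 library, filled circles are GABPα, open squares are ERG, and 0 means no MACS peak within 10 kb. All ERG squares sit at 0, and the GABPα circles of TFAM are at 0 in both Jurkat replicates.

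The peaks lay at the gene starts. High confidence GABPα peaks, taken as the one nearest the start in each sample, were centred at -47.5 to -3 bp from the given start in TFB2M, where negative values are upstream. The centres lay at 4 to 47 bp in COX4I1 and at -3.5 to 45.5 bp in COX5B. In TFB1M they lay further upstream, at -175 to -110 bp, and in SDHB at -79.5 to 46 bp. In both Jurkat replicates the TFB2M high confidence interval was the same, from -198 to 174 bp. The TFAM peaks were the only ones centred more than 200 bp downstream, but the given starts are round positions that were not checked against an hg18 annotation.

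**Figure D3:**
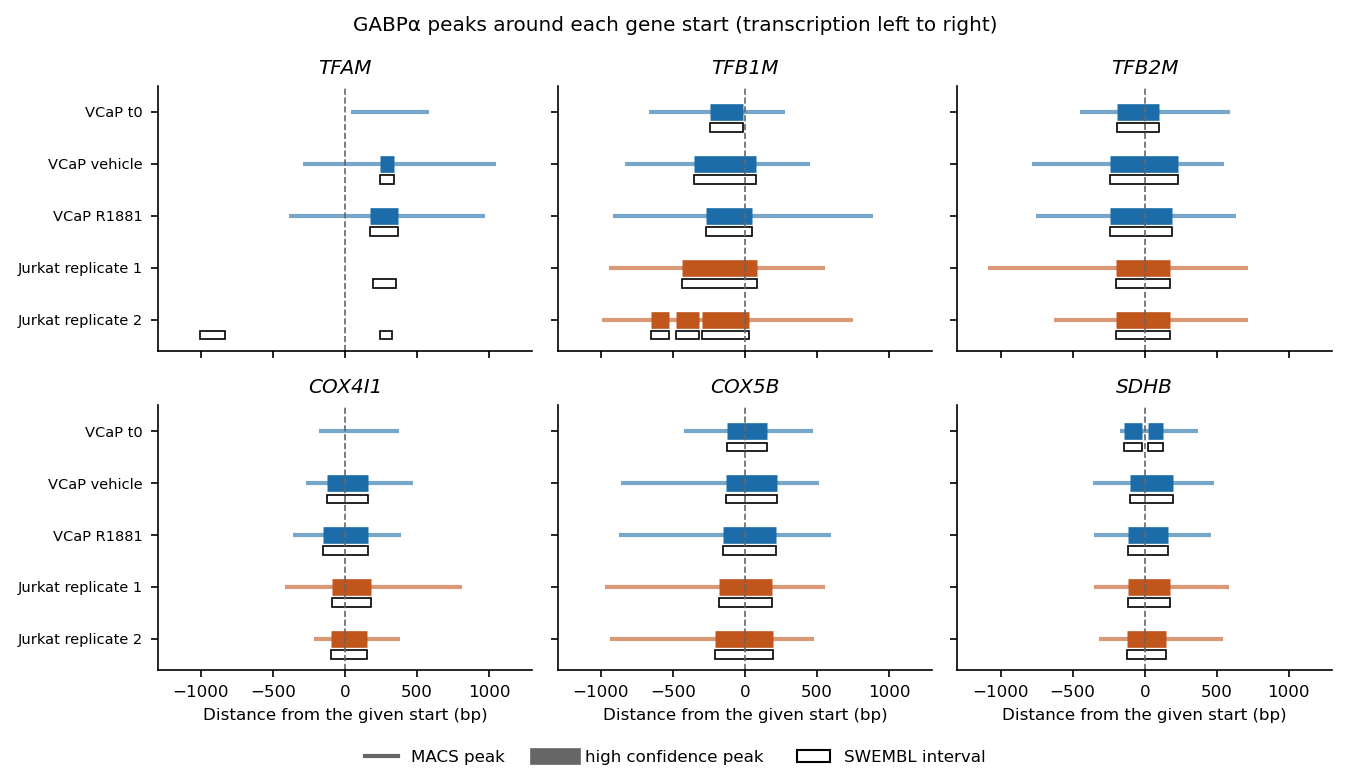
GABPα intervals around the given start of each gene (dashed line; horizontal axis in bp, transcription from left to right) in 5 samples; thin lines are MACS peaks, thick bars high confidence peaks and open boxes SWEMBL intervals. In TFAM the Jurkat rows hold SWEMBL boxes without a MACS line, and the TFAM and COX4I1 peaks at t0 have no thick bar.

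ERG was not found at these promoters. None of the 5 ERG samples had a MACS peak, a high confidence peak or a SWEMBL interval within 10 kb of any of the 6 starts. Among the 2387 regions with GABPα in all 5 samples, 27.4% had an ERG MACS peak within 10 kb of the centre and 8.71% had one in the region itself. The ERG samples held 6963 to 23947 MACS peaks but only 2 to 2229 high confidence peaks, with 2 at t0.

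The nearest ERG peak to any of the 6 was 11.3 kb from the TFB2M start in Jurkat replicate 2, with a score of 319.51, and 11.5 kb away in replicate 1, with a score of 468.67. These scores stood at the 95.6 and 98.1 percentile of the ERG peaks of their samples. For TFAM the nearest was 34.9 kb away, at t0, with a score of 52.32, and a stronger one with a score of 263.74 lay 50.9 kb away with vehicle. The nearest ERG peaks of the other four were 71.4 kb (COX4I1), 122.9 kb (TFB1M), 144.6 kb (COX5B) and 170.6 kb (SDHB) away, all with scores under 100.

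With ERG at 0 throughout, the GABPα percentile was higher in 5 of 5 samples at 5 of the 6 promoters, a separation found in 2.39% of the merged regions. This separation can only occur where GABPα has a peak in all 5 samples. It was found in 2232 regions, beside 2387 regions with GABPα in all 5, so it was the usual state of such regions. The mean GABPα percentile was 87.5 ± 3.57 (SD, n = 5) for TFB1M, 86.9 ± 11.5 for TFB2M, 84.8 ± 11.0 for COX5B, 77.5 ± 13.3 for COX4I1 and 76.8 ± 12.9 for SDHB. The exact two-sided permutation test over samples gave p = 0.00794 for each of these 5, the smallest value that this design allows, and this value follows from the peak calls alone, with a peak in every GABPα sample and in no ERG sample. Since the genes were chosen as GABPα targets, it is no independent support for binding. The test also treats the 3 VCaP conditions and 2 Jurkat replicates of an antibody as 5 like samples. With samples paired by line and treatment (replicate block), the exact p was 0.0625 for the 5, so that none was below 0.05. TFAM had a mean of 36.4 ± 36.5 (SD, n = 5), with an exact p = 0.167. Each SD spans 3 VCaP conditions and 2 Jurkat replicates, so it mixes differences of line, treatment and replicate. No promoter passed after Benjamini-Hochberg adjustment of these exact permutation p-values over the 93526 regions, at an adjusted p of 0.332 for the 5 and 1 for TFAM. Across all regions 0 passed at an adjusted 0.05 and 3444 had an unadjusted p under 0.05.

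Between the cell lines, GABPα percentiles were higher in VCaP than in Jurkat cells without overlap at TFAM, TFB2M, COX5B and SDHB. Of the 5 promoters with peaks in all samples this was 3, or TFB2M, COX5B and SDHB, beside 36.8% of the 2387 regions, while 21.1% of regions were higher in Jurkat. With TFAM it was 4 of the 6, beside 64.3% of the 4484 regions with a GABPα peak in all 3 VCaP samples. TFAM is among the 4 because it has no MACS peak in Jurkat cells, where SWEMBL marked it in both replicates. The difference of the means was 60.6 points for TFAM, 22.0 for SDHB, 19.1 for COX5B, 14.9 for TFB2M, 9.90 for COX4I1 and 1.36 for TFB1M. The median over the 5 was 14.9 points, beside 3.73 points over the 2387 regions.

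The Jurkat mean was 86.7 ± 5.15 (SD, n = 2) for TFB1M, 78.0 ± 15.9 for TFB2M, 73.3 ± 6.46 for COX5B, 71.5 ± 16.0 for COX4I1 and 63.6 ± 6.15 for SDHB. Replicates differed by 10 points or more at TFB2M and COX4I1, or 2 of 5, as did 40.5% of the 15536 regions with a peak in both. With 3 samples against 2, the exact two-sided permutation test cannot go below 0.1, which TFB2M, COX5B and SDHB reached. By this exact test the p-value was 0.2 for TFAM, although its groups did not overlap, 0.5 for COX4I1 and 0.8 for TFB1M. The 3 VCaP samples differed in treatment, so their spread is not that of replicates. Single samples decided several of these differences. Without Jurkat replicate 1 the difference was 5.00 points for TFB1M, now without overlap, 3.61 for TFB2M and -1.42 for COX4I1. Without Jurkat replicate 2 it was -2.29 points for TFB1M, 26.1 for TFB2M and 21.2 for COX4I1, now without overlap, as COX4I1 also was without t0, at 17.4 points. The measure used mattered too. As log2 of the score over its sample median, with a score of 50 where no peak was called, TFB1M no longer overlapped between the lines, with a difference of 1.43. SDHB overlapped between the lines, with a difference of 6.44 points, when the highest peak within 10 kb was taken, and TFAM overlapped at 17.5 points among high confidence peaks and at 35.7 points with a minimum score of 100.

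The 5 promoters with a peak in all samples were also set beside the 2387 regions, without a test. Their median percentile was 85.9 at t0, 91.7 with vehicle and 89.4 with R1881, beside 84.2, 89.7 and 90.4 for the regions. In Jurkat cells it was 68.0 in replicate 1 and 82.8 in replicate 2, beside 84.3 and 86.7. TFB1M in replicate 1 and TFB2M in replicate 2 lay above the median of the regions.

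R1881 moved none of the 6 by 10 points or more relative to vehicle, in either direction. Of the 9843 regions with a peak in both samples, 15% rose and 12.4% fell by at least that much, but among the 2387 regions with GABPα in all samples only 1.34% rose and 1.8% fell. The differences, R1881 minus vehicle, were 2.95 points for TFAM, 0.95 for COX4I1, 0.33 for SDHB, 0.22 for TFB2M, -0.94 for COX5B and -5.55 for TFB1M. The scores themselves gave ratios of 0.94 to 1.11 for 5 of the promoters and 0.70 for TFB1M, where the median ratio over all shared regions was 1.00. TFB1M was the one promoter that passed 10 points when other peaks were ranked, at -19.3 points among high confidence peaks and -10.2 points when peaks scoring below 100 were left out. Among high confidence peaks the differences of the other five were -5.01 to -1.36 points, so that TFAM, COX4I1, TFB2M and SDHB turned in sign. With 1 library per treatment no difference has a replicate check.

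From t0 to vehicle, TFAM rose by 35.3 points and COX4I1 by 22.0 points, and the other four moved by less than 10 points. This made 2 of the 6 that rose by 10 points or more, beside 35.7% of the 4617 regions with a peak in both samples, while 4.61% fell by that much and none of the 6 did. Of the 2387 regions with GABPα in all samples, 27.8% rose and 2.39% fell by that much. SDHB differed by 7.83 points, TFB1M by 5.96, COX5B by 3.65 and TFB2M by -3.39. Scores were higher with vehicle throughout, and the ratio of vehicle to t0 was 12.6 for COX4I1, 7.36 for TFAM, 3.41 for SDHB, 2.66 for TFB1M, 2.20 for COX5B and 1.32 for TFB2M. The median ratio over shared regions was 2.99, so TFB2M, COX5B and TFB1M gained less score than the median region. The number that rose depended on which peaks were ranked. Among high confidence peaks COX4I1 rose by 69.3 points, SDHB by 39.8, TFB1M by 29.0, TFAM by 26.9 and COX5B by 18.6. When peaks scoring below 100 were left out the same 5 rose, COX4I1 by 70.6 points, TFAM by 51.9, SDHB by 32.9, TFB1M by 24.1 and COX5B by 15.8. TFB2M alone stayed within 10 points in both. COX4I1 and TFAM had no high confidence peak at t0 and were given 0 there. The same held for TFAM with a minimum score of 100. Those rises therefore equal the vehicle percentile. The share of all regions that rose in these rankings is not given. In log2 score ratios centred on the median region, COX4I1 (2.08) and TFAM (1.30) rose and TFB2M (-1.18) fell by at least 1.5-fold. The t0 sample had the fewest GABPα peaks, with 9531 MACS peaks against 14183 with vehicle and 2851 high confidence peaks against 6365. The part of these peak numbers in the differences was not tested.

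**Figure D4:**
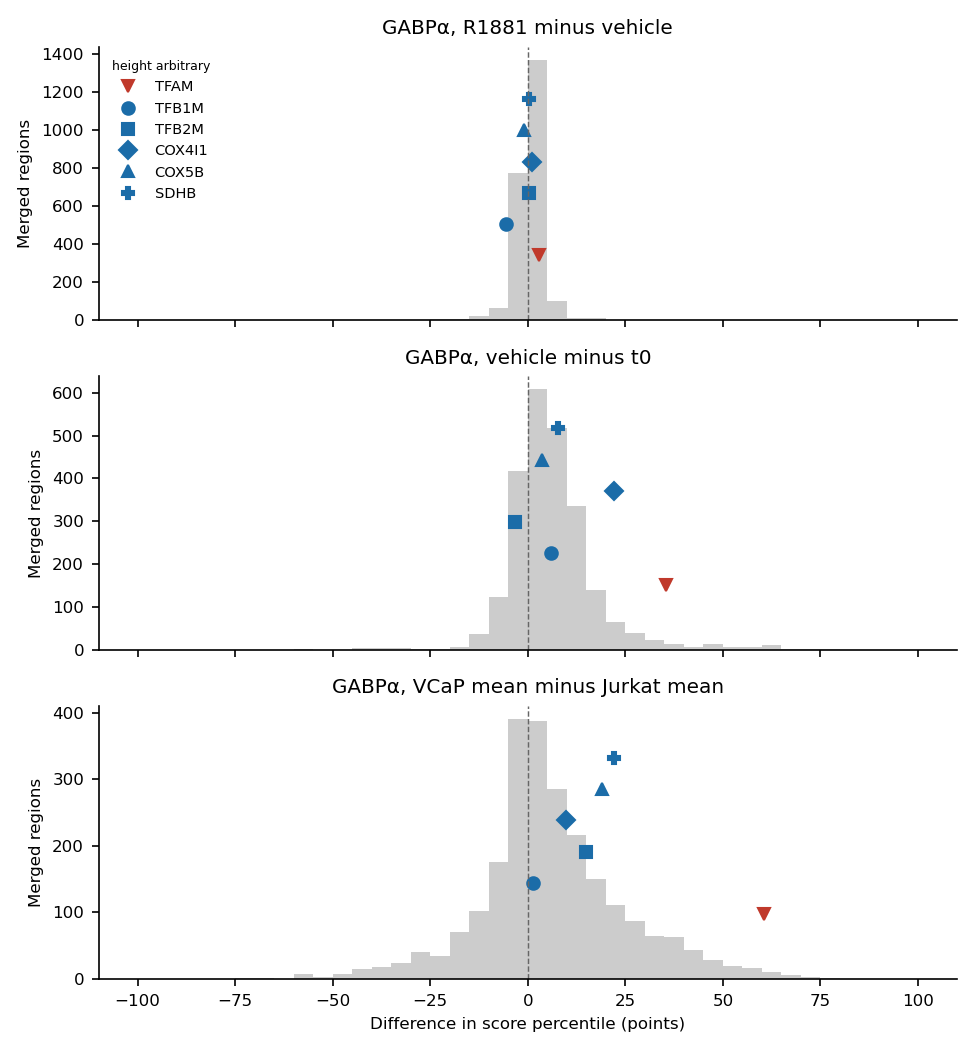
Differences in GABPα score percentile (horizontal axis, in points) between R1881 and vehicle, vehicle and t0, and the VCaP and Jurkat means; grey bars count the 2387 regions with GABPα in all 5 samples in 5-point bins, and symbols mark the 6 promoters at an arbitrary height. With R1881 the promoters stay between -5.55 and 2.95 points, whereas TFAM lies at 35.3 points for vehicle minus t0 and at 60.6 points for VCaP minus Jurkat.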

How the data were processed

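GABPα and ERG ChIP was performed in VCaP and Jurkat cells and sequenced as 36 base single-end reads. Per the submitters' processing notes, the authors aligned reads with BWA (0.5.5) to hg18 and called peaks with MACS (version not given), and the methods add SWEMBL as the second caller, a mapping quality of at least 15, removal of duplicate reads and biological replicates. The deposited MACS and high confidence files give a score per peak, -10 × log10 of the p-value. High confidence peaks carry the score of the MACS peak around them. SWEMBL files and several ERG high confidence files give no such score, and only their intervals were used. The files hold no read numbers, so depth and its precision are unknown.

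Samples were grouped by the labels. Peaks of the 10 samples were merged (overlap of at least 1 bp) and scores turned into percentiles within samples (Python 3.11.15, numpy 2.4.6, scipy 1.17.1, matplotlib 3.10.9). The merging was checked against bedtools 2.31.1 on simulated intervals. Tests were exact permutations over samples with Benjamini-Hochberg adjustment over all regions, and single libraries were compared by a change of 10 points. On simulated data of 2000 features, all 200 shifted ones reached the smallest p in the GABPα against ERG test. The shift set the groups fully apart, so this checks the code and not the power of the test. All 6 genes given are named. The members, lists and tests were chosen with earlier results of these data known. Alternatives were windows of 1 and 50 kb, high confidence peaks, SWEMBL intervals, a minimum score of 100, log2 score ratios, the highest peak in the window, left-out samples, a replicate block and other motifs. Promoters (300 bases, 1 per gene, GRCh38.p14) are from RefSeq. Inputs were not analysed here, and the result of 1 further motif is not reported here.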

Additional observations from a re-analysis of the deposited data

Results flagged for a closer look

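At TFAM, 2 GABPα samples, Jurkat replicates 1 and 2, had a SWEMBL interval at the promoter and no MACS peak. This stood out because SWEMBL intervals alone were not part of the comparisons of scores. No ERG sample had a SWEMBL interval within 10 kb of TFAM.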

How the results depend on the processing

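A GABPα peak in all samples was found for 5 of the 6 promoters with windows of 1 and 50 kb, with a minimum score of 100 and without either Jurkat replicate, and for 4 with high confidence peaks or SWEMBL intervals. ERG was at 0 of the 6 under every setting tried except a window of 50 kb, which took in ERG peaks at 2 (TFAM and TFB2M). The number higher in VCaP than in Jurkat cells, 4, was 3 to 5, and 5 when either Jurkat replicate or t0 was left out. It was also 5, with TFB1M added, when log2 of the score over the sample median was used. The number that moved by 10 points with R1881 was 1 rather than 0 among high confidence peaks, and 1 with a minimum score of 100. From t0 to vehicle it was 5 rather than 2 in both of these settings (all but TFB2M), where a peak missing at t0 was given 0, and the cause was not tested. With score ratios centred on the median region and a threshold of 1.5-fold it was 3, with COX4I1 and TFAM up and TFB2M down. Against the 1 promoter with CCGGAAGT, CGGAAG gave 5 and CGGATG, chosen after seeing the data, 2. With GABPα and ERG samples paired by line, treatment and number (replicate block), the exact p was 0.0625 for 5 promoters, the smallest that 32 sign flips allow, which loses the unadjusted call of all 5, and 0.25 for TFAM. Whether Jurkat samples of the same number came from the same cells is not known. The replicate differences of GABPα and ERG had a correlation of 0.00175 over 41051 regions. This value cannot settle it, since an antibody without a peak in both replicates has a difference of 0. Of 114 values of single promoters under alternatives, 93 kept their side of the threshold, 13 gained a call and 8 lost one. The sign turned in 11, all of them values that had no call. The numbers of samples and the unknown read numbers limit precision.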
